A study of Mus musculus with 8 samples.

Results

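Embryoid bodies of R1 mouse embryonic stem cells that had received a control siRNA were described here across genes and lineages. The members were the 3 arrays titled Control, out of 8 arrays in the series. The other 5 arrays were of cells given either of a pair of siRNAs against CnAb1 (CnAβ1, a form of the calcineurin A beta catalytic subunit). They entered only as a check on the slides and where levels on Control 1 were set beside every other array of the series. R1 is an established male mouse embryonic stem cell line. Cells were transfected with siRNA, grown as embryoid bodies for 48 h, and total RNA was taken 48 h after transfection, so no untransfected or undifferentiated array was analysed here and each Control array carried the transfection as well. The sequence of the control siRNA and the culture medium are not given in the sources used here. The series title names mesoderm as the direction of differentiation. The labels number the Control samples 1 to 3 and do not say whether they came from separate cultures, so the spread given below is that between these samples and may be technical.

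An embryoid body is an aggregate of stem cells in suspension. After the signals that hold naive pluripotency are withdrawn, cells in it pass through a formative and then a primed epiblast state, marked by genes such as Fgf5, Otx2 and Dnmt3b, and later form primitive streak cells marked by T. The outer cells become primitive endoderm, which gives rise to visceral and parietal endoderm and lays down a basement membrane of laminin and collagen IV. RNA of all these cells was pooled on each array, so fewer cells of a type and less RNA per cell cannot be told apart in any value below.

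A level is the log2 of a probe's background-corrected Cy3 intensity minus the 75th percentile of its array, so that 0 stands for the 75th percentile. Levels of different probes depend on probe sequence and were not ranked against each other. Of 20019 named genes, 15104 (75.4%) had a probe well above background on all 3 Control arrays, 3472 (17.3%) had none on any array, and 7.21% lay between. Between 76.2% and 81% of named genes were well above background on an array. That flag says only that a spot was brighter than its local background. Olfactory, vomeronasal and bitter taste receptor genes, 1351 by symbol and looked at after their values were seen, carried it on all 3 arrays in 292 cases (21.6%), and among 153 negative control spots an array had at most 1.

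The 3 arrays lay on 3 slides, 1 Control array on each, so slide and replicate cannot be told apart within the Control group. The arrays correlated across 26178 probes with Pearson r of 0.990 to 0.995, a value across probes, which are not independent replicates. Over the 15097 genes whose brightest probe was well above background on all 3 arrays, the median SD between arrays was 0.14, with 0.26 in the 3775 dimmest genes and 0.10 in the 3774 brightest. For 307 probes printed as 10 spots, the median SD was 0.07 between single spots of an array and 0.13 between arrays. The SD between arrays is of levels averaged over those spots, so the values are not like measures. The highest and the lowest array differed by 2-fold or more in 828 genes (5.48%). Leaving out an array can only lower this count, since a range over fewer arrays cannot be wider. It was 154 without Control 1, 468 without Control 2 and 616 without Control 3. Among genes with a mean at or above the 75th percentile it was 58.

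Each array stood apart in its own way. Control 1 was 2-fold or more above the mean of the other arrays in 54 genes (0.358%), heart muscle genes among them, and below it in 376 (2.49%). Control 2 was above in 156 (1.03%) and below in 26 (0.172%), and Control 3 above in 89 (0.59%) and below in 48 (0.318%). Genes well above background on 1 array alone made up 0.27% for Control 1, 1.52% for Control 2 and 1.17% for Control 3. In the value table the authors deposited, the Control 2 column matched the scanner file of Control 3 and the reverse (r = 1.00 across 25704 probes), while each had r = -0.06 with its own. The names of the scanner files are used throughout, and which assignment is right is not known. Spike-in transcripts added to each labelling reaction read higher on Control 2 for all 10 probes, by a median of 0.95 relative to the 75th percentile, as the plot of spike-in levels shows.

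**Figure D1:**
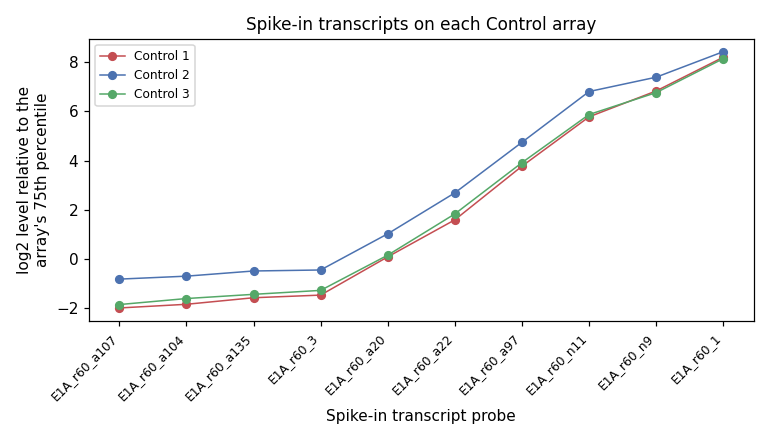
Spike-in transcript levels on the Control arrays, as log2 relative to the 75th percentile of each array (vertical axis), for 10 spike-in probes in order of their mean (horizontal axis); each point is the mean over the spots of a probe. Control 2 lies above Control 1 and Control 3 at every probe, by a median of 0.95 over the mean of the other arrays.

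All 14 genes of the core pluripotency list were well above background on all 3 arrays, beside 75.4% of all named genes. Pou5f1, the POU factor at the centre of the pluripotency network, read 4.58, 4.38 and 4.53 on Control 1, 2 and 3. Its partner Sox2 read 1.16, 1.47 and 1.07. Sall4, a zinc finger factor, lay at 3.18 ± 0.03 (SD, n = 3), the chromatin protein Utf1 at 5.46 ± 0.07 and the let-7 regulator Lin28a at 4.48 ± 0.25. The arrays overlapped closely here: 0 of 14 members differed by 2-fold between arrays, and SDs ran from 0.02 to 0.25. The epithelial cadherin Cdh1 (3.27 ± 0.11) and Epcam (2.08 ± 0.15), both chosen after their values were seen, were as even.

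Formative and primed epiblast genes were detected as fully, with 19 of 19 well above background on all 3 arrays. Fgf5, the growth factor that marks the post-implantation epiblast, read 3.13, 3.33 and 3.25. The homeobox factor Otx2 read 4.71, 4.66 and 4.69, and Pou3f1, a POU factor of the formative state, 4.59, 4.76 and 4.53. The de novo DNA methyltransferase Dnmt3b read 7.37, 7.20 and 7.21, and its relative Dnmt3a lay at -0.51 ± 0.17. Otx2 varied by an SD of 0.02, below the median of all genes. A single member differed by 2-fold between arrays: Zic2, a zinc finger factor, read 1.26 on Control 1 and -0.37 and -0.23 on Control 2 and 3. The median SD of the list was 0.14, as over all genes.

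Promoters of a gene from each of these lists are shown because CpG content, which played no part in choosing the members, went with detection. The 250 bases before the start are from RefSeq on GRCm38.p6, with each CpG in capitals: Pou5f1 at chr17:35505782-35506031 on the plus strand and Dnmt3b at chr2:153649199-153649448 on the plus strand.
Pou5f1: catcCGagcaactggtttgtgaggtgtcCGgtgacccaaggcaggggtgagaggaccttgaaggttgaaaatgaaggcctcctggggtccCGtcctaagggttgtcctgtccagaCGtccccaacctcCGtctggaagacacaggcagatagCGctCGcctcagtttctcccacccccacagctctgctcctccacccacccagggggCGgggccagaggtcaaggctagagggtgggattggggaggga
Dnmt3b: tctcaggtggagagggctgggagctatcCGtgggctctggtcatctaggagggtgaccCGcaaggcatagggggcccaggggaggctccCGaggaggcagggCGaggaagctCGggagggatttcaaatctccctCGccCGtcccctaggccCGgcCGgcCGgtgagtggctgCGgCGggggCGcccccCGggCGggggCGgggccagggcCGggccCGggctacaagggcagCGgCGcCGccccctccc
The Pou5f1 window holds 8 CpGs, with an observed over expected CpG ratio of 0.33, and the Dnmt3b window holds 21, with a ratio of 0.61. Of 15888 named genes with a RefSeq promoter, those with a ratio over 0.6 were well above background on all 3 arrays in 7182 of 7743 cases (92.8%). The share was 82.1% of 2310 genes at 0.4 to 0.6 and 49.7% of 5835 genes under 0.4, where Pou5f1 lies. Chemoreceptor genes account for part of the last class, and without them the share was 56.4% of 4716. Genes under 0.4 also differed by 2-fold between arrays in 13.3% of cases, against 2.24% of those over 0.6. Dim probes varied more between arrays, as given above, and the part of probe level in this difference was not tested.

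Naive pluripotency genes were all still well above background (23 of 23 on all 3 arrays) but were not level between arrays. They were highest on Control 2 in 21 of 23 cases, where 42.1% of all genes were highest. The median member was 0.61 (log2) above the mean of the other arrays on Control 2, 0.27 below it on Control 1 and 0.23 below it on Control 3, beside 0.03, -0.01 and 0.01 over all genes. Esrrb, an orphan nuclear receptor, read 0.80, 2.08 and 0.98, which is 2.28-fold higher on Control 2. Tcl1, an Akt co-activator, read -1.90, -0.29 and -1.60, and the nuclear receptor Nr0b1 (Dax1) -0.99, 0.31 and -0.67. Klf4 read -2.45, -1.12 and -1.70, with Control 1 the lowest. Control 2 lay above both other arrays for each of these factors.

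Other naive factors were also highest on Control 2. Tfcp2l1 read -2.33, -1.28 and -2.28, and Nr5a2, a nuclear receptor, -1.09, 0.04 and -0.92. Prdm14, a repressor of lineage genes, read -5.17, -4.04 and -4.94, near the dim end of the measured range. Klf2 read 0.69, 1.27 and 0.63, and Klf5 0.64, 1.55 and 0.77. Nanog was nearly level, at -3.34, -3.07 and -3.08, and was measured by 1 probe. Outside the naming rule and chosen after their values were seen, the LIF receptor Lifr (0.33 ± 0.05), Stat3 (0.97 ± 0.19) and Fgf4 (3.24 ± 0.06) also varied little. The higher spike-in levels moved with Control 2 as well, and their part in this difference was not tested. With normexp background correction and quantile normalization the median on Control 2 was 0.33, and under the column names of the deposited value table, which assign Control 2 and Control 3 the other way round, it was -0.24.

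**Figure D2:**
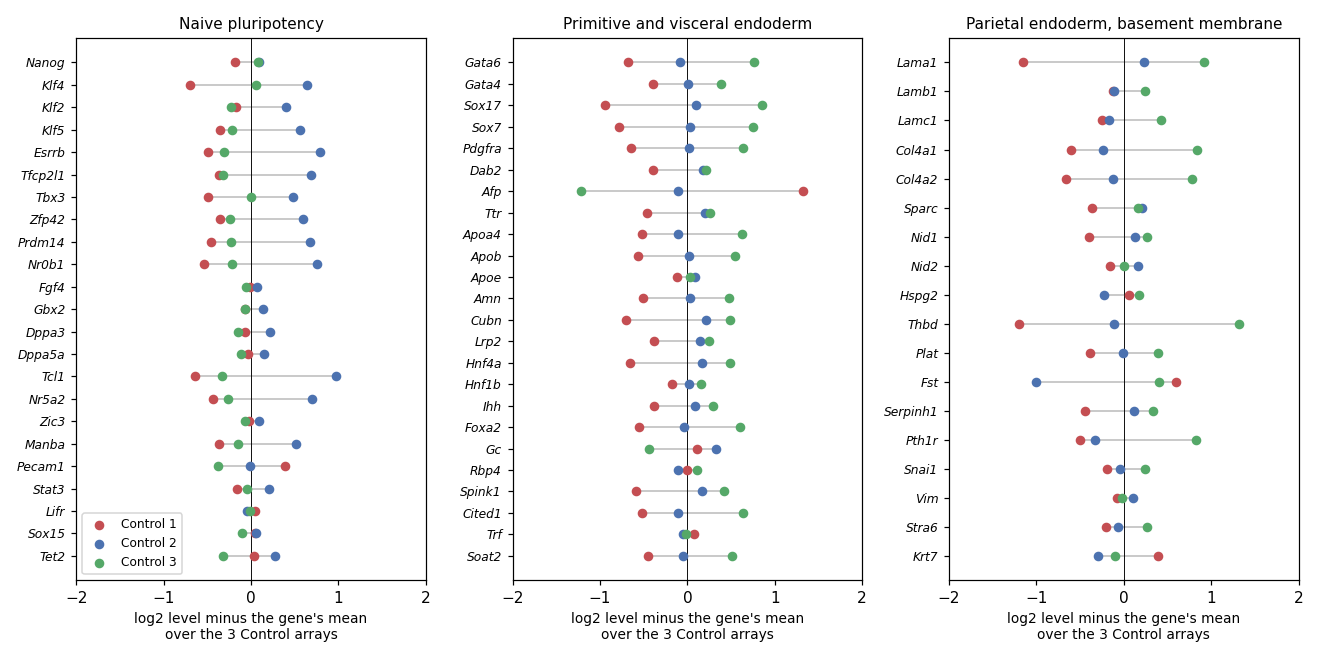
Levels of list members on each Control array as log2 difference from the gene's mean over the 3 arrays (horizontal axis), for naive pluripotency, primitive and visceral endoderm, and parietal endoderm and basement membrane genes well above background on all 3 arrays; points are arrays and grey lines join the lowest and highest. Control 2 is highest in 21 of 23 naive genes, and Control 3 is highest in 20 of 24 primitive and visceral endoderm genes.

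Primitive streak and mesoderm genes were well above background on all 3 arrays in 23 of 29 cases (79.3%), close to the 75.4% of all named genes. T (Brachyury), the factor that defines the streak, read -2.14, -3.81 and -2.82, lowest on Control 2 by 2.51-fold. Evx1, a homeobox gene of the posterior streak, read -2.61, -3.78 and -2.98, and Sp5, a Wnt target, -0.36, -1.46 and -0.68. All 3 were lowest on Control 2 and highest on Control 1. Eomes, a T-box factor of the anterior streak, was more even at 1.67, 1.27 and 1.57, and Mesp2 lay at -3.05 ± 0.08. Mesp1, which marks cardiac mesoderm, Wnt3a and Foxc1 were not well above background on any array, and Mixl1 was so on 1 array.

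Not every gene of the list followed T. Snai2, a zinc finger repressor, read -4.15, -2.58 and -3.76, highest on Control 2, and the PDGF receptor Pdgfra -4.27, -3.61 and -2.99, highest on Control 3. Over the list the median differences were 0.09, -0.14 and 0.14 on Control 1, 2 and 3, a median over members that went both ways. Of the 23 members, 5 differed by 2-fold, beside 5.48% of all genes. Genes chosen after their values were seen included Kdr, a VEGF receptor of early mesoderm, at 2.27 ± 0.32, and Hand1, Foxc2 and Msgn1, whose means lay between -5.25 and -5.03.

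Primitive and visceral endoderm genes were well above background on all 3 arrays in 24 of 25 cases, all but Apoa1. Of these, 12 differed by 2-fold or more between arrays, against 5.48% of all genes. Control 3 was the highest array in 20 of 24, where 22.9% of all genes were highest on it, and Control 1 the lowest in 20 of 24, where 40.1% of all genes were lowest on it. The median member was 0.73 below the mean of the other arrays on Control 1, 0.04 above it on Control 2 and 0.67 above it on Control 3. Without Control 1 the excess on Control 3 was 0.30. With normexp and quantile normalization the medians on Control 1 and Control 3 were -0.46 and 0.41.

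Its transcription factors led this pattern. Gata6, a zinc finger factor needed for primitive endoderm, read -2.73, -2.13 and -1.28, and the HMG box factor Sox17 -3.16, -2.12 and -1.37, 2.42-fold higher on Control 3. A second Sox17 probe was again lowest on Control 1, at -3.75, with -2.96 on Control 2, and highest on Control 3. Sox7 read -3.63, -2.82 and -2.11, Gata4 -1.70, -1.30 and -0.93, and the forkhead factor Foxa2 -1.80, -1.28 and -0.64. Hnf4a, a nuclear receptor of visceral endoderm, read -3.17, -2.35 and -2.02. In each of these Control 1 was the lowest array and Control 3 the highest.

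Secreted and uptake proteins of visceral endoderm mostly did the same. Cubn, the cubilin receptor of the absorptive surface, read 1.22, 2.14 and 2.41. The lipid carriers Apob (-2.91, -2.33 and -1.80) and Apoa4 (-5.63, -5.21 and -4.48) were lowest on Control 1 too. Spink1, a trypsin inhibitor, read 1.02, 1.78 and 2.03, and the transcriptional co-regulator Cited1 1.56, 1.97 and 2.72. Afp, the fetal serum protein alpha-fetoprotein, ran the other way, at -2.19, -3.62 and -4.73, with Control 1 3.94-fold above the mean of the other arrays. Apoe (4.50 ± 0.11), Trf (-1.18 ± 0.07) and Rbp4 (-1.45 ± 0.11), chosen after their values were seen, varied less than 2-fold.

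Parietal endoderm and basement membrane genes were well above background on all 3 arrays in 18 of 18 cases, and 6 of 18 differed by 2-fold. Control 3 was highest in 13 and Control 1 lowest in 15. Lama1, the laminin alpha chain of the embryonic basement membrane, read 2.18, 3.56 and 4.25. Its partner chains varied less: Lamb1 read 3.71, 3.73 and 4.08, and Lamc1 3.13, 3.21 and 3.81. The collagen IV chains moved together, Col4a1 at 0.00, 0.36 and 1.44 and Col4a2 at -0.24, 0.30 and 1.21. Both were highest on Control 3, by 2.39-fold and 2.25-fold.

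Thbd (thrombomodulin), a surface marker of parietal endoderm, had a wide range, at -5.42, -4.33 and -2.90, and the parathyroid hormone receptor Pth1r read -0.80, -0.63 and 0.51. Fst (follistatin), an activin antagonist, did not follow the list: it read 3.07, 1.47 and 2.88, lowest on Control 2. The median of the list was -0.46 on Control 1, -0.13 on Control 2 and 0.45 on Control 3. Scaling to the median of each array, which shifted all genes by 0.21 on Control 1, -0.16 on Control 2 and -0.05 on Control 3, left -0.25 on Control 1. Without Control 3 the value on Control 1 was -0.25 as well, and with normexp and quantile normalization it was -0.25.

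The endoderm and naive differences were set beside the other arrays of the same slides, each taken as a deviation from its own siRNA group. On the slide of Control 3, the median deviation of primitive and visceral endoderm genes was 0.60 on the siRNA 1 array and -0.05 on the siRNA 2 array. On the slide of Control 1 it was -0.27 and 0.05. The siRNA 2 group has 2 arrays, so their deviations mirror each other. Naive pluripotency medians on the siRNA 1 and siRNA 2 arrays were -0.34 and -0.18 on the slide of Control 3 (-0.23 on Control 3). On the slide of Control 1 they were 0.52 and 0.18 (-0.27 on Control 1). Parietal endoderm medians were 0.23 and 0.09 on the slide of Control 1 (-0.46 on Control 1). They were 0.23 and -0.09 on that of Control 3 (0.45 on Control 3), and -0.38 on that of Control 2 (-0.13 on Control 2). Over all genes 2-fold higher on Control 3, 75 of 89 (84.3%) were also above their own group on both slide mates, beside 35.6% of all genes. The slide of Control 2 held 1 further array, on which the naive pluripotency median was -0.22, with 5 of 23 genes on the same side as on Control 2. Of 156 genes 2-fold higher on Control 2, 72 (46.2%) were above their own group on that array, beside 52.1% of all genes. Slide and culture cannot be told apart with 1 Control array a slide.

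**Figure D3:**
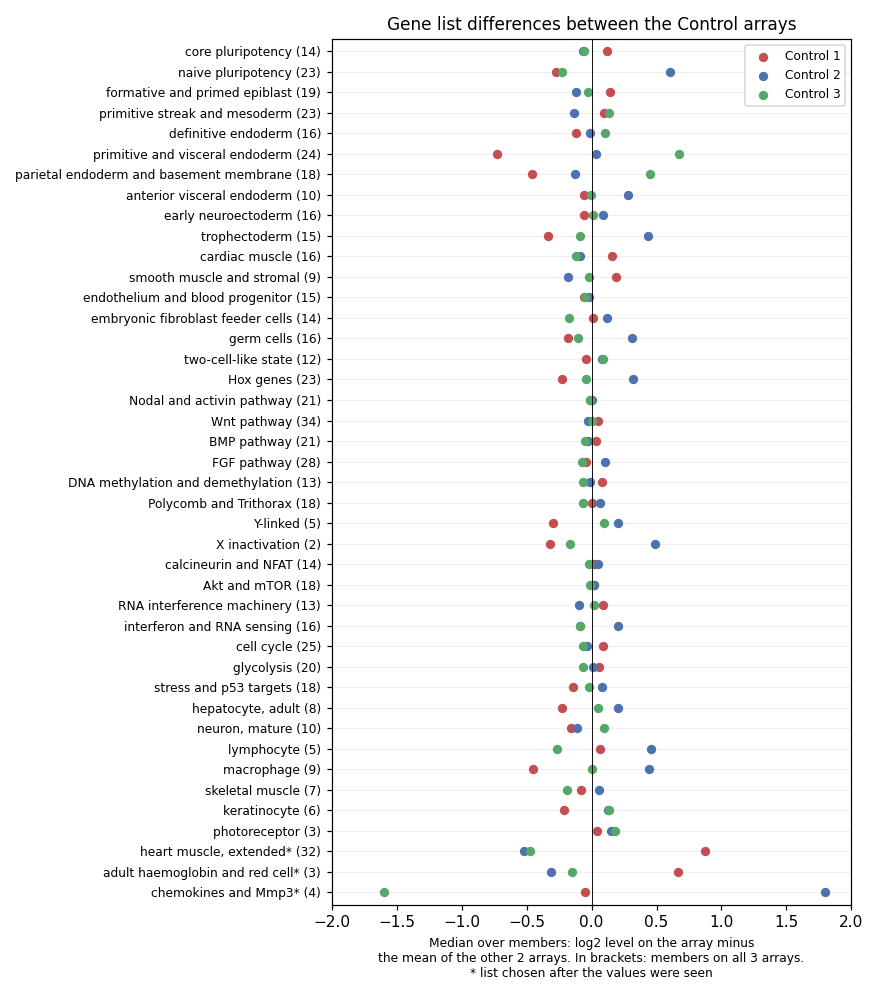
Median difference of each gene list on each Control array from the mean of the other arrays (horizontal axis, log2), over members well above background on all 3 arrays; points are arrays, and an asterisk marks lists chosen after the values were seen. Naive pluripotency stands at 0.61 on Control 2, and primitive and visceral endoderm at -0.73 on Control 1 and 0.67 on Control 3. Of the lists with an asterisk, chemokines and Mmp3 stand at 1.80 on Control 2 and -1.60 on Control 3. On Control 1 heart muscle stands at 0.87 and haemoglobin at 0.66. Other lists also lie off 0, such as parietal endoderm (-0.46 on Control 1, 0.45 on Control 3) and macrophage (-0.45 on Control 1, 0.44 on Control 2). The Nodal, Wnt, BMP and FGF lists stay near 0.

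Part of the heart muscle genes were higher on Control 1 than on the other Control arrays. In the cardiac muscle list 16 of 18 genes were well above background on all 3 arrays, and 5 of those 16 were 2-fold or more above the other arrays on Control 1, against 0.358% of all genes. Myl2, the ventricular myosin regulatory light chain, read 1.18, -3.70 and -3.82, which is 30.8-fold higher on Control 1. Actc1, cardiac alpha-actin, read 0.92, -3.00 and -2.59, or 13.1-fold higher. The myosin heavy chains Myh6 (2.83, 1.51 and 1.64) and Myh7 (-0.10, -1.51 and -1.41) differed by 2.38-fold and 2.56-fold, and Nppa, atrial natriuretic peptide, read -2.94, -5.12 and -5.10. A second, dim Myh6 probe, well above background on 2 arrays, read -5.93, -5.24 and -4.86, lowest on Control 1. By their brightest probes Control 1 lay above both other arrays in each of these genes, while Control 2 and Control 3 lay within 2-fold of each other.

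The start regions of Actc1 and Myl2, the pair with most difference among members of that list well above background on all 3 arrays, are shown with motifs searched on both strands in the 250 bases before the start. The motifs were the TATA motif TATAAA, the Tead motif CATTCC, the Gata motif AGATAA, and the CArG box, which is bound by serum response factor. Matches are in capitals, in RefSeq sequence on GRCm38.p6, for Actc1 at chr2:114052876-114053125 on the minus strand and Myl2 at chr5:122092474-122092723 on the plus strand.
Actc1: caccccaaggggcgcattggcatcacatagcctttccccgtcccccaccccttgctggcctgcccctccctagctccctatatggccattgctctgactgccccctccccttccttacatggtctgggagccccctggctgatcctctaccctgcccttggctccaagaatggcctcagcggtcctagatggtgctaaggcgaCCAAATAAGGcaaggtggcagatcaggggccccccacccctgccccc
Myl2: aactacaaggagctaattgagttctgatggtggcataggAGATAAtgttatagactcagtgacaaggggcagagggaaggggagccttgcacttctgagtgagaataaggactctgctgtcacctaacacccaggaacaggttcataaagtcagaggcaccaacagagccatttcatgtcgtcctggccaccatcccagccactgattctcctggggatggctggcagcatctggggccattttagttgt
Actc1 holds a CArG box, found in 1.4% of 27025 RefSeq promoter windows of that length, and Myl2 an AGATAA, found in 10.3%. TATAAA was in 13% of all windows and CATTCC in 12.6%, and neither is in these 2 windows. Both windows are poor in CpG, with a ratio of 0.17 for Actc1 and 0.064 for Myl2.

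A longer heart muscle list of 44 genes was written after these values were seen, and its counts describe Control 1 without supporting the choice. Of its members, 32 were in the set measured on all 3 arrays, 14 of those were 2-fold or more higher on Control 1, and Control 1 was the highest array in 23, where 35% of all genes were highest on it. Cox6a2, the muscle form of a cytochrome oxidase subunit, read 0.56, -4.17 and -4.28. Myl3, the ventricular essential light chain, read 1.44, -2.92 and -2.51, and Tcap, a cap of titin, -1.08, -4.44 and -5.35. Mybpc3, cardiac myosin binding protein C, read -1.38, -4.38 and -5.01, and the troponins Tnni3 (-1.35, -3.81 and -4.15) and Tnnc1 (-3.31, -5.81 and -5.10) behaved alike. Of the 15 genes with the widest range over all 15097, 8 were in this list.

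A further 7 members were well above background on Control 1 alone. Mb, myoglobin, read 0.15 there and was at least 93.7-fold higher than on the other arrays, where it has only a bound. The bound takes, on each dim array, the lowest signal well above background or the probe's own, whichever is higher. Cox8b, another muscle oxidase subunit, was at least 36.6-fold higher and the mitochondrial creatine kinase Ckmt2 at least 29.8-fold. Csrp3, Myoz2, Pln (phospholamban) and Ankrd1 were at least 9.56-fold, 8.5-fold, 5.19-fold and 3.46-fold higher. Tnnt2, cardiac troponin T, read -0.39 and -5.76 on Control 1 and 2 and was not well above background on Control 3.

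Not all heart genes took part. The cardiac transcription factors Nkx2-5 (-2.73, -2.69 and -3.05), Tbx5 (-5.38, -5.18 and -5.21) and Isl1 (-4.85, -3.92 and -4.35) were not higher on Control 1, and Mef2c was not well above background on any array. The atrial and embryonic light chains Myl7 (-5.11 ± 0.29) and Myl4 (-1.86 ± 0.14), chosen after their values were seen, differed by less than 2-fold. Tpm1, a tropomyosin, was level by its brightest probe (1.70, 1.53 and 1.73), while further probes read 1.29, -0.31 and 0.20, and 1.82, 0.16 and 0.76, highest on Control 1. Corin, Trdn, Nebl and Lmod2 were not well above background on any array, and the probes of Ldb3, a Z-disc protein, disagreed: the brighter was lowest on Control 1 (-2.63, -0.58 and -0.90), with -3.75 and -3.36 on the other arrays of its slide, and the dimmer was highest there (-4.34, -4.80 and -4.49). The adult beta-globin Hbb-bt was well above background on Control 1 alone, at least 2.86-fold higher, and the alpha-globin Hba-a2 read -0.49, -1.34 and -1.56. Both are from a list of 6 haemoglobin and red cell genes written after the values were seen. Control 1 lay above all 7 other arrays of the series in 4 of the 6. The share was 16.1% among genes well above background on all 3 arrays, a set that held only 3 of the 6. The 4 include Hbb-bt and also Hbb-b2, which read -6.54 on Control 1. That is below the lowest level well above background on that array, -6.02. Alas2 (-6.84, with -6.79 to -5.71 on the other 7 arrays) and Slc4a1 (-4.04, with -3.96 to -3.42) were lowest on Control 1. The Alas2 value on Control 1 was also below -6.02.

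On the other arrays of the slide of Control 1, Myl2 read -2.79 and -2.34, Actc1 -3.47 and -3.14, Cox6a2 -4.78 and -4.59, and Mb -7.37 and -7.27, all below Control 1. Hba-a2 read -0.81 and -0.71 there, between Control 1 and the other Control arrays. Control 1 lay above all 7 other arrays of the series in 8 of 18 genes of the cardiac muscle list and in 33 of 44 of the longer list, in which Nebl and Lmod2, well above background on no Control array, are counted. Among the 15097 genes well above background on all 3 arrays it did so in 2428 (16.1%). The list counts were not limited to that set, which held 16 of the 18 and 32 of the 44 genes. A further 7 of the 44 were well above background on Control 1 alone, so the list counts and the 16.1% are not like measures. Over 15097 genes, 10 exceeded each of the other 7 arrays of the series by 2-fold or more on Control 1. Of these, 3 were in the cardiac muscle list. All 10 were in the longer heart list, but that list was written after these values were seen, so this count gives it no support. Of 7 skeletal muscle genes well above background on all 3 arrays, 3 were highest on Control 1, where 35% of all genes were highest. Of the same 7 genes, 2 differed by 2-fold, beside 5.48% of all genes. Ckm, the muscle creatine kinase, which is also in the longer heart list, read -3.80, -4.82 and -4.84, and Tnni2, fast troponin I, -2.05, -3.08 and -2.31. The regulator Myod1 read -4.75, -4.56 and -4.65, and Myf5 was not well above background on any array. Over the longer list the median on Control 1 was 0.87, and 0.42 with normexp and quantile normalization. The source of these transcripts was not tested.

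**Figure D4:**
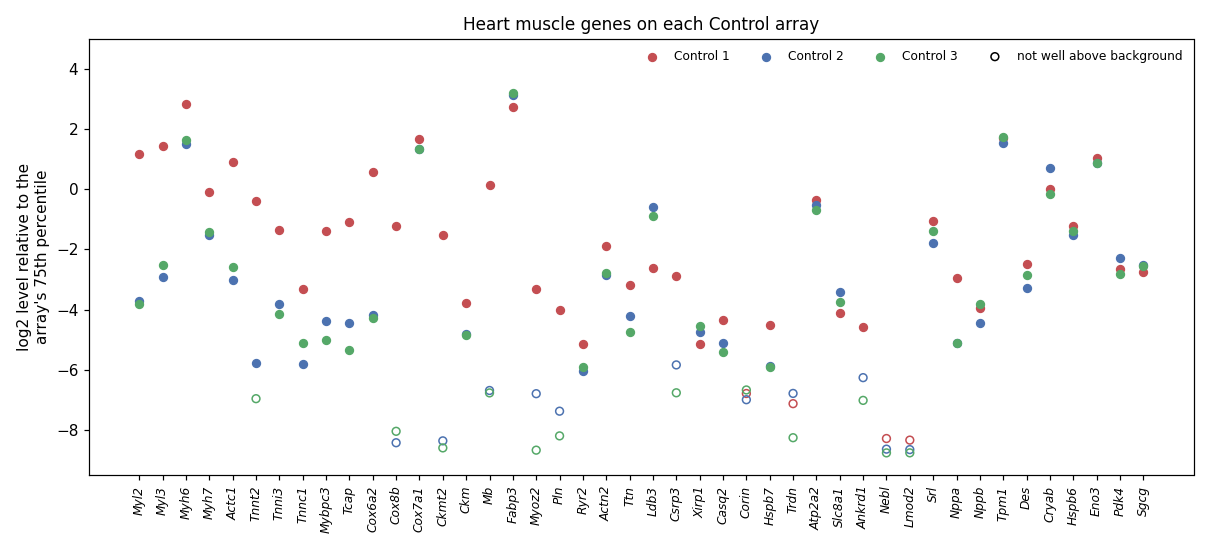
Levels of 44 heart muscle genes on each Control array (vertical axis, log2 relative to the 75th percentile of the array), in the order of the list; filled points are well above background and open points are not. Control 1 stands far above the others for Myl2, Myl3, Actc1, Cox6a2 and Mb, and together with them for Fabp3; Tpm1 is drawn by the brightest of its 5 probes, which is level.

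The 376 genes lower on Control 1 were of another kind. Among the 15 genes with the widest range they include 1700022A21Rik (-4.51, -1.09 and -1.77) and Foxp3 (-4.67, -2.18 and -2.23). Zfp352 of the 2-cell-like list is another, and Fbxl20 (-0.16, 2.26 and 1.99) and Bgn (-1.39, 0.97 and 0.69), chosen after their values were seen, are brighter examples. Of the 376, 306 (81.4%) were also below their own group on both other arrays of that slide, beside 39.8% of all genes. By 2-fold or more 177 (47.1%) were so, beside 1.38% of all genes. Chemoreceptor genes lay lower as well, with a median of -0.35 over the 292 detected. Of the 54 genes higher on Control 1, 31 (57.4%) were also above their own group on both slide mates, beside 35.9% of all genes. By 2-fold or more 3 (5.56%) were so, beside 0.232% of all genes.

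Control 2 carried a small group of immune and matrix genes at a higher level, assembled after their values were seen. Ccl2, a monocyte chemokine, read -3.00, -1.68 and -3.92, and its neighbour Ccl7 -3.84, -2.88 and -4.97. Ccl9 read -4.05, -3.23 and -6.06 and the matrix protease Mmp3 -4.96, -3.01 and -5.52. Control 2 was highest and Control 3 lowest in all 4. Macrophage genes were well above background on all 3 arrays in 9 of 11 cases (81.8%), beside 75.4% of all named genes. Csf1r, the receptor of macrophage growth factor, read -0.26, 1.00 and 0.37, the complement gene C1qb -3.52, -2.36 and -2.46, and Lyz2 -4.13, -3.28 and -4.65, while Ptprc (CD45), the pan-leukocyte marker, read -5.44, -5.19 and -4.93.

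Lists of other embryonic lineages had 75% to 90% of their genes well above background on all 3 arrays, beside 75.4% of all named genes. The lowest of these shares, that of endothelial and blood progenitor genes, was the share of all genes. Early neuroectoderm genes were well above background on all 3 arrays in 16 of 20 cases: Sox1, an early neural factor, read -3.71, -2.64 and -2.43, Pax6 -3.83, -3.82 and -3.77, and the intermediate filament Nes 1.27, 0.29 and 0.90, while Pou3f2 and En1 were on no array. Trophectoderm genes were so in 15 of 17 cases, with Cdx2 at -3.32 ± 0.25, Tfap2c at -0.36, 0.70 and -0.13, Tead4 at -3.73, -2.61 and -3.17, and the placental hormone Prl3d1 at -4.73, -3.49 and -3.44. Endothelial and blood progenitor genes were in 15 of 20, with Etv2, a regulator of blood and vessel progenitors, at 1.05, 0.33 and 0.69, Tal1 at -3.04 ± 0.05 and Flt1 at -0.23 ± 0.09. The vessel genes Tie1 and Fli1 and the embryonic globin Hba-x were on no array. Smooth muscle genes were in 9 of 10, with Tagln at 2.55, 2.00 and 2.26, Cnn1 at 2.41, 1.78 and 2.18 and Acta2 at -1.30 ± 0.10.

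Definitive and anterior endoderm genes overlapped with the visceral lists and were read with them. Foxa1 lay at -1.73 ± 0.13, the organizer gene Gsc at -2.36, -3.02 and -2.38, and Cer1, a secreted Nodal antagonist, was well above background on 2 of 3 arrays. Lefty1, another Nodal antagonist, read 1.76, 2.09 and 1.61, Hhex lay at -1.19 ± 0.09, and Hesx1 read -4.29, -3.86 and -5.02. Of the 38 Hox genes measured, 23 were well above background on all 3 arrays (60.5%) and 10 on none, below the share of all genes. Hoxa3 lay at -4.35 ± 0.24 and Hoxa4 at -3.38 ± 0.18, and Hoxa5 was on no array. Hoxd4 (-3.73, -5.30 and -4.70) and Hoxc12 (-5.77, -4.66 and -5.70) differed by 2-fold, in opposite directions.

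Germ cell genes were well above background on all 3 arrays in 16 of 17 cases, with the RNA helicase Ddx4 at 0.43 ± 0.04, Dazl at -3.38 ± 0.16 and Prdm1 at -3.06, -1.96 and -2.88. Genes of the 2-cell-like state, a rare fluctuating state of stem cell cultures, were so in 12 of 14, with Zscan4c at 1.48 ± 0.05 and Zscan4f at 2.39 ± 0.10. Of these 12, Zfp352 alone differed by 2-fold, at -0.01, 2.44 and 1.95, lowest on Control 1. Zscan4 copies are near-identical, and a probe may read several. Fibroblast genes, listed as markers of feeder cells, were so in 14 of 18 (77.8%), close to the 75.4% of all named genes. Col1a1 lay at -1.17 ± 0.23 and Col1a2 at 0.07 ± 0.07, and Dcn read -1.44, -1.79 and -2.17. The Y-linked genes Eif2s3y (1.78 ± 0.05) and Ddx3y (-0.04 ± 0.18) were well above background on all 3 arrays. Xist, the RNA of X inactivation, was on none, by either of its 2 probes.

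The signalling pathways of the epiblast were detected nearly in full, with 87.5% to 100% of each list, beside 75.4% of all named genes. All 21 Nodal pathway genes were well above background on all 3 arrays: the ligand Nodal read 3.73, 3.35 and 3.62, its co-receptor Tdgf1 lay at 2.61 ± 0.02 and Cfc1 at -2.42 ± 0.03, and the ligands Gdf1 and Gdf3 lay at 2.80 ± 0.26 and 2.42 ± 0.09. Inhba, an activin subunit, read -3.25, -2.21 and -2.74 and was the only member to differ by 2-fold. Wnt pathway genes were so in 34 of 35. The ligand Wnt3 read -0.85, -1.78 and -1.09, Wnt5b -0.12, -1.32 and -0.53 and the receptor Fzd2 2.28, 1.18 and 1.87, all lowest on Control 2 as T and Sp5 were, while Wnt11 read -3.66, -3.22 and -2.54 and was highest on Control 3.

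FGF pathway genes were well above background on all 3 arrays in 28 of 29 cases, Fgf2 being on none. Fgf4, the ligand of the early epiblast, lay at 3.24 ± 0.06, Fgf8, a streak ligand, read 0.88, 0.00 and 0.60, and the receptor Fgfr3 read -3.24, -2.03 and -2.71. Spry4, a feedback inhibitor, read -3.88, -2.70 and -3.71. BMP pathway genes were so in 21 of 24, with Bmp5, Smad9 and Bambi on no array. The ligand Bmp4 read 0.51, 0.97 and 0.66, Bmp7 lay at -1.88 ± 0.13, and the antagonist Nog read -0.31, -0.69 and -1.49. Medians over the Nodal, Wnt, BMP and FGF lists stayed between -0.07 and 0.10 on each array.

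Medians of the chromatin, cell cycle and glycolysis lists stayed between -0.07 and 0.09 on each array. Members that differed by 2-fold were 1 of 13 for DNA methylation, 1 of 18 for Polycomb and Trithorax, 2 of 25 for cell cycle and 1 of 20 for glycolysis, beside 5.48% of all genes. All 13 genes of DNA methylation and demethylation were well above background on all 3 arrays, with the maintenance enzyme Dnmt1 at 1.40, 0.85 and 1.09, its cofactor Uhrf1 at 4.55 ± 0.04, and Dnmt3l, a cofactor of the de novo enzymes, at 4.18, 4.90 and 4.36, while Tet3 read -2.32, -1.39 and -1.32. Polycomb and Trithorax genes were so in 18 of 19, with Ezh2 at 1.96 ± 0.13, Eed at 4.30 ± 0.07 and Suz12 at 1.76 ± 0.11. Cell cycle genes were so in 25 of 26, with cyclin E1 (Ccne1) at 5.37 ± 0.12 and cyclin B1 (Ccnb1) at 3.90 ± 0.11; cyclin D1 (Ccnd1) read 1.95, 0.91 and 1.64, lowest on Control 2, and the inhibitor Cdkn2b -2.05, -0.79 and -1.78. Glycolysis genes were so in 20 of 20, with the glucose transporter Slc2a1 at 5.64 ± 0.22 and Gpi1 at 6.01 ± 0.03, and Pfkp read -0.72, 0.29 and -0.49.

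The machinery that bears on the experiment itself was present. All 13 RNA interference genes were well above background on all 3 arrays, with the slicer Ago2 at 2.21 ± 0.16 and Dicer1 at 1.15 ± 0.11, and by their brightest probes none differed by 2-fold. A second Ago2 probe did, at -1.42, 0.30 and -0.03. Calcineurin and NFAT genes were so in 14 of 15: the catalytic subunits Ppp3ca (1.49, 2.23 and 1.83), Ppp3cb, the gene of the CnAβ subunit (0.75, 0.52 and 0.62), and Ppp3cc (-4.73, -5.09 and -5.03), and the regulatory subunit Ppp3r1 (1.90, 1.96 and 1.73). Ppp3r2, the testis form, was on no array. All 18 Akt and mTOR genes were well above background, with Akt1 at 2.61 ± 0.08 and Mtor at -0.88 ± 0.05. Interferon and RNA sensing genes, which respond to double-stranded RNA, were so in 16 of 24 (66.7%), beside 75.4% of all named genes. Isg15 lay at -1.65 ± 0.09 and Oas1a at -0.52 ± 0.15, and Ifit1, Ifit3, Tlr3 and Ifnb1 were among those on no array. Stress and p53 target genes were so in 18 of 18, with Mdm2 at 4.62, 5.11 and 4.61 and Bax at 4.41 ± 0.21.

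Apart from macrophage genes, markers of adult cell types had shares below the 75.4% of all genes. Photoreceptor genes were well above background on all 3 arrays in 3 of 12 cases (25%), with Gnat2 at -1.61 ± 0.14, and lymphocyte genes in 5 of 13 (38.5%), with Cd4 at 2.04, 1.58 and 1.09 by its brightest probe (-3.72, -3.19 and -3.35 by a second) and Cd3d, Cd3g, Ms4a1 and Rag2 on no array. Keratinocyte genes were so in 6 of 11, adult hepatocyte genes in 8 of 14, skeletal muscle genes in 7 of 12 and mature neuron genes in 10 of 14. Albumin (Alb) was well above background on 1 array, and Gad1, Gad2 and Calb1 on none. The photoreceptor share lay near the 21.6% of chemoreceptor genes, at the low end of the plot of detection by list.

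**Figure D5:**
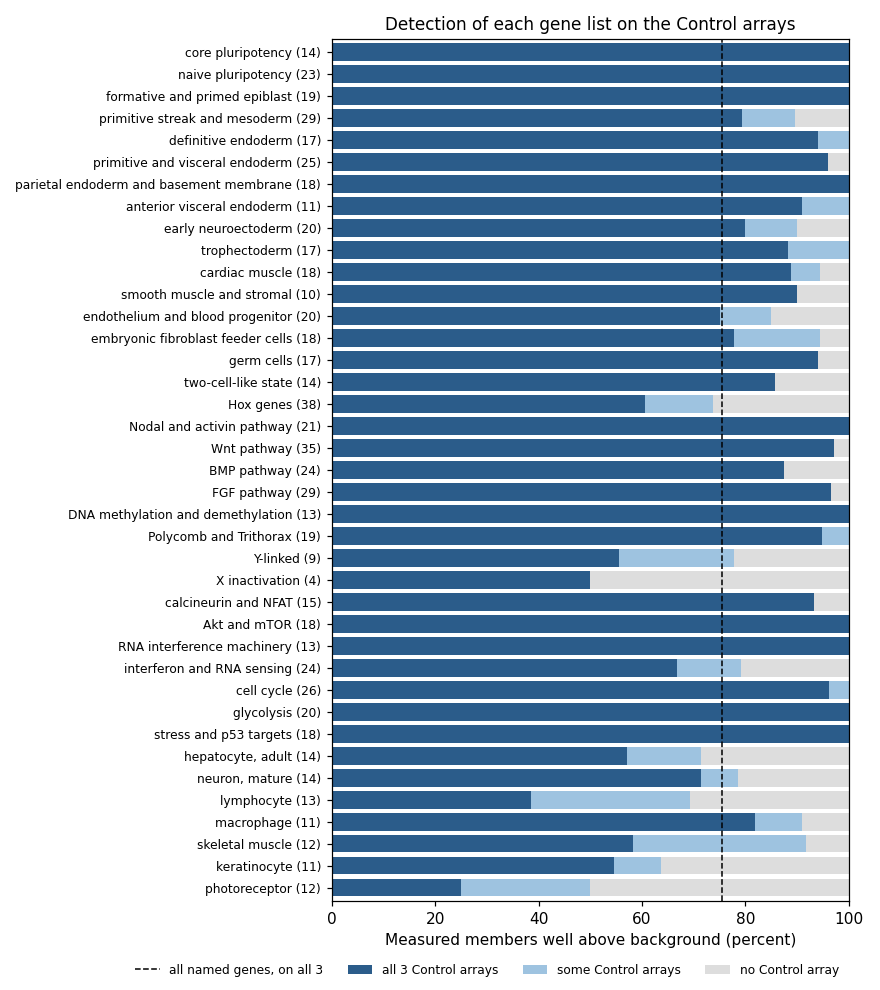
Share of measured members of each gene list (horizontal axis, percent; number measured in brackets) that were well above background on all 3, on some or on no Control arrays; the dashed line is the 75.4% of all named genes on all 3 arrays. Pluripotency, epiblast, parietal endoderm, Nodal and glycolysis lists reach 100%, and photoreceptor genes 25%.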

How the data were processed

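Total RNA of the 3 Control samples was hybridised to Agilent 1-colour (Cy3) arrays. Per the file headers, the deposited scanner files hold intensity values of 44397 spots each, read out in Agilent Feature Extraction 10.7.3.1, which also subtracted background. None of the 43020 non-control spots of an array was saturated, and control spots were not counted. The authors' deposited value table, used as an alternative, holds log2 values with probes centred over 8 arrays. Its Control 2 and Control 3 columns lay within 0.01 of the same percentile scaling, by the scanner file each matched, in 97.6% and 97.8% of 25704 probes. The Control 1 column did so in 9.62%, though it correlated with its own file at r = 1.00. Medians of the Control 1, 2 and 3 columns were 0.0015, -0.0073 and 0.016. RMA appears in the submitters' processing notes, its role unstated.

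Control and outlier spots were left out, spots of a probe were averaged, and a level was the log2 processed signal after subtraction of the log2 75th percentile over non-control spots. Of 39429 probes, 26424 were matched to symbols by accession in the RefSeq table of GRCm38.p6. The brightest probe stood for a gene; any of its probes could carry detection. The alternative correction used limma 3.58.1 in R 4.3.3; all else used Python 3.11.15 with pandas 2.3.3 and was checked on simulated arrays. With 1 group there was no test, and precision is limited by having 3 arrays.

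Members and lists were chosen with earlier results of these data known. Genes were named by a rule: the first 5 measured members of a list, members on no array where these were 5 or fewer, members on all 3 arrays that differed by 2-fold, and the 15 genes of widest range. Not every gene the rule allows is printed, and longer lists were summarised by some of them. Genes outside the rule are said to be chosen after their values were seen. Alternatives covered detection, scaling, background correction, the dim-probe filter, the fold and leaving out each array.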

Additional observations from a re-analysis of the deposited data

How the results depend on the processing

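No paired analysis was possible because a single group was described and no groups were compared. The count of genes well above background on all 3 arrays, 15104, lay between 15097 and 16547 under its alternatives. The count of genes differing by 2-fold, 828, was 167 with normexp and quantile normalization and 2670 with no filter on dim probes. It was 58 among genes at or above the 75th percentile and 2671 at 1.5-fold. When an array was left out, which can only lower the count, it ran from 154 to 616. Without the heart muscle genes, an alternative chosen after seeing the data, it was 812. Under the column names of the deposited value table, the naive pluripotency median on Control 2 turned to -0.24, the parietal endoderm median on Control 3 to -0.14 and the visceral endoderm median on Control 3 fell to 0.029. With those columns exchanged, a setting chosen after seeing the data, they were 0.60, 0.44 and 0.66, so the column names account for the turn. The endoderm, naive and heart medians kept their direction under the other alternatives run. Signal over background limits the 3775 dimmest genes, of which 13.3% differed by 2-fold, against 0.636% of the 3774 brightest. Of the levels of named genes recomputed, 654 stayed within the SD between arrays and 316 did not, and scaling to the median also moves their zero. Of the detection counts of lists, 284 stayed within 1.5 times and 10 did not, in the lymphocyte, skeletal muscle, photoreceptor and haemoglobin lists.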
